A study of Mus musculus with 12 samples.

Results

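The transcriptomes of 6 liver tumors were compared with non-tumoral liver tissue taken from the 6 animals that bore them, with each tumor set against its own liver. All 12 libraries of the series entered the comparison. Each of the 6 tumors was joined to the liver that carries the same animal number, and every gene was tested as tumor minus own liver with the animal as a block. The mice were over 18 mo old and on a standard diet, and the study names its WT strain as C57BL/6J N. The 4 p21+/Tert animals express Tert, the reverse transcriptase of telomerase, from the Cdkn1a (p21) promoter, and gave 3 HCC (T-HCC941, T-HCC662, and T-HCC663) and T-HCA992. The 2 p21+/TertCi animals express a catalytically inactive Tert from the same promoter and gave TCi-HCC981 and TCi-HCA984. The non-tumoral livers carry the same alleles as the tumors, and no WT liver was compared here, so the differences are between tumor and liver within transgenic animals. The tumors are named as hepatocellular carcinoma (HCC) or hepatocellular adenoma (HCA), although the study's histology lists T-HCC663 as an adenoma. The liver paired with T-HCC662 is titled with another animal number and was joined to that tumor by the number in its file record. All 12 libraries held 2 to 27 reads of Xist and 672 to 1863 reads of Ddx3y, so no pair mixed the sexes.

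A hepatocyte makes plasma proteins, urea, bile acids, and glucose, and it breaks down amino acids, hormones, and drugs. Liver tumors of hepatocellular origin keep part of this program and lose another part while their cells divide, and embryonic liver genes that are silent in the adult are often found in them. Comparing a tumor with the liver of the same animal removes what the 2 tissues share, such as age, genotype, diet, and inherited variation.

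Between 14571716 and 26170661 reads per library were counted on 24421 genes, of which 13822 passed the filter on low counts and were tested. Levels below are counts per 1000000 (CPM) after TMM scaling. A log2 fold change is the fitted tumor minus own liver value with its standard error (SE), and a pair difference is the same contrast of log2 CPM within 1 animal, with a prior count of 2. Tert itself was counted at 10.5 to 17.3 CPM in livers and 4.69 to 26.1 CPM in tumors (log2 fold change -0.12 ± 0.32, adjusted p = 0.834), and reads of the transgene and of the endogenous gene cannot be told apart in this count. Cdkn1a, whose promoter drives the transgene and whose product arrests the cell cycle, ranged from 1.62 to 51.1 CPM in livers and 32.9 to 81 CPM in tumors. It was higher in every tumor than in its own liver, by 2.79 ± 0.63 in the fit (adjusted p = 0.0246), although the liver of the TCi-HCA984 mouse at 51.1 CPM lay within the tumor range. The liver of the TCi-HCA984 mouse was the lowest of the 6 livers in 32.3% of the genes that fell in all pairs, and the liver of the TCi-HCC981 mouse was the highest of the 6 in 43.1% of the genes that rose in all pairs. In Ass1, for example, the liver of the TCi-HCA984 mouse held 89.4 CPM while the other livers held 344 to 691 CPM. The tumors of these mice were often extreme too. TCi-HCA984 was the highest tumor in 32.6% of the genes that fell, and TCi-HCC981 in 33.2% of those that rose. The liver of the T-HCC662 mouse was the highest liver in 37.4% of the genes that fell. Such shares were not taken over all genes tested.

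The paired comparison separated the tumors from their livers in a large part of the transcriptome. At an adjusted p under 0.05, 1197 genes rose (8.66% of those tested) and 967 fell (7.00%), and 2164 changed in all (15.7%), while 4515 had an unadjusted p under 0.05 (32.7%). Irrespective of the test, 1525 genes were higher in 6 of 6 pairs (11.0%) and 1589 were lower in 6 of 6 pairs (11.5%). The genes that satisfied both conditions numbered 1054 higher (7.63%) and 867 lower (6.27%), and their functions are described here. Of the genes that rose, 142 others did so with 5 pairs higher and 1 with 4, and of those that fell 100 had 1 pair on the other side. The number of genes that passed depended on single pairs. It was 570 higher and 296 lower without the T-HCC941 pair, 615 and 324 without the T-HCA992 pair, and 732 and 475 without the TCi-HCC981 pair, whereas DESeq2 called 1893 and 1646, edgeR with no animal block 952 and 534, and the 4 p21+/Tert pairs alone 571 and 383. Without the TCi-HCA984 pair it was 891 higher and 724 lower, and without the T-HCC662 pair, whose liver has another number in its title, 1037 and 823. Among the genes named, the calls lost in 6 or more of the 11 alternatives were those of Ctsz, Rpl32, Akr7a5, Esrra, Sult1a1, Acadvl, Bhmt, Cebpa, Ctsd, Rxra, Akr1b3, Aldoa, C8a, Fbp1, Mat1a, and Nfil3.

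**Figure D1:**
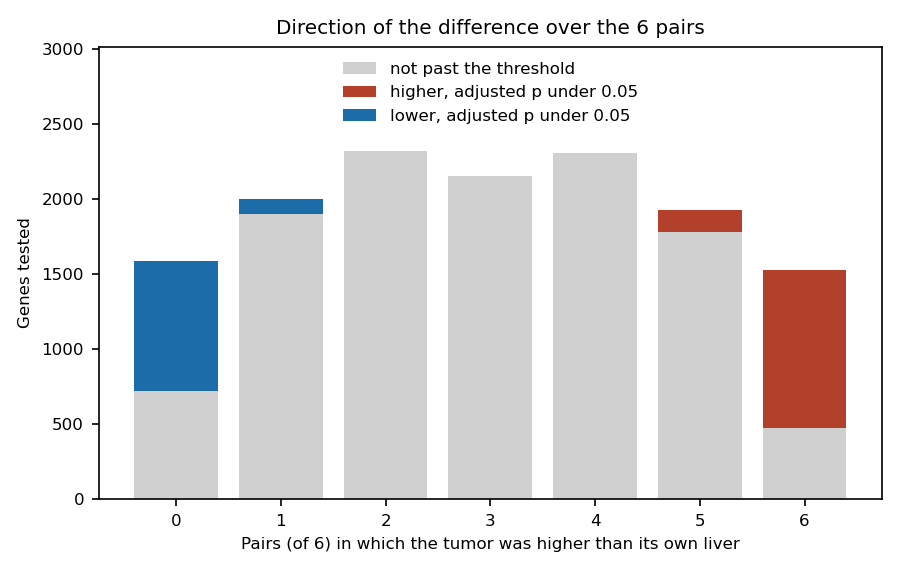
Number of genes tested (y axis) by the number of pairs in which the tumor was higher than its own liver (x axis, 0 to 6), with genes that passed the paired edgeR test in red (higher) and blue (lower). Of the genes in the outer bars, 867 of 1589 and 1054 of 1525 passed, whereas no gene with 2 or 3 pairs higher did.

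Several of the genes with the smallest p moved by similar amounts in all 6 animals. A choice by the smallest p of a paired test favors such genes. Vcam1, the endothelial adhesion molecule for leukocytes (chr3:116109949-116129688 of GRCm38, a protein-coding gene on the minus strand), had the lowest, median, and highest levels of 6.08, 10.6, and 30.1 CPM in livers and 22.5, 35, and 111 CPM in tumors. The 2 ranges overlapped, yet each tumor exceeded its own liver by 1.67 to 2.24 on the log2 scale, and the fitted log2 fold change was 1.95 ± 0.13 (adjusted p = 0.00134). Nedd9, a scaffold protein of focal adhesions, behaved alike, with pair differences of 1.59 to 2.17 and a fit of 1.98 ± 0.16. Uap1l1, related to the enzyme that makes UDP-N-acetylglucosamine, had 5.51, 9.02, and 17.8 CPM in livers against 37.4, 67.4, and 90.9 CPM in tumors, with no overlap of the groups (log2 fold change 2.65 ± 0.19). Mtmr11, a member of the myotubularin family, also separated the groups, with 4.4 to 7.99 CPM in livers and 52.2 to 101 CPM in tumors (log2 fold change 3.28 ± 0.24). A near-identical gene model exists for Mtmr11, as for Fam84b (log2 fold change 2.63 ± 0.17) and Tnfsf13, the cytokine APRIL (log2 fold change 2.81 ± 0.23), so reads could be split there.

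Genes that were almost silent in the livers formed the extreme of the increase. Akr1c18, a hydroxysteroid dehydrogenase that inactivates progesterone (chr13:4132615-4150654, protein coding, minus strand), had 5 reads in all 6 livers together and none in 4 of them, and the tumors ranged from 9.82 to 94.5 CPM with a median of 52.1 CPM. Its smallest pair difference was 5.07 in the T-HCC663 pair and its fitted log2 fold change 9.89 ± 0.72 (adjusted p = 0.00134), above even the largest pair difference of 9.85. The prior count of 2 enters the pair differences and not the fit. Because the livers were near 0, the size of both values is uncertain. Slc7a11, the cystine importer that feeds glutathione synthesis, held 19 reads in all livers together and 4.91, 32, and 131 CPM in tumors (lowest, median, highest), with a log2 fold change of 7.79 ± 0.81 (adjusted p = 0.00281). Elovl7, an elongase of long-chain fatty acids, Cpe, a carboxypeptidase of prohormones, and Scn8a, a sodium channel, showed fitted log2 fold changes of 5.96 ± 0.60, 5.92 ± 0.76, and 4.96 ± 0.55, and in none of them did the lowest tumor fall to the level of the highest liver. Mmp13, a collagenase, was at 0.228 to 1.05 CPM in livers and 4.6 to 36.7 CPM in tumors, and Cd14, the coreceptor for bacterial lipopolysaccharide, at 0.706 to 11.8 and 4.33 to 143 CPM, with overlap for Cd14 alone.

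**Figure D2:**
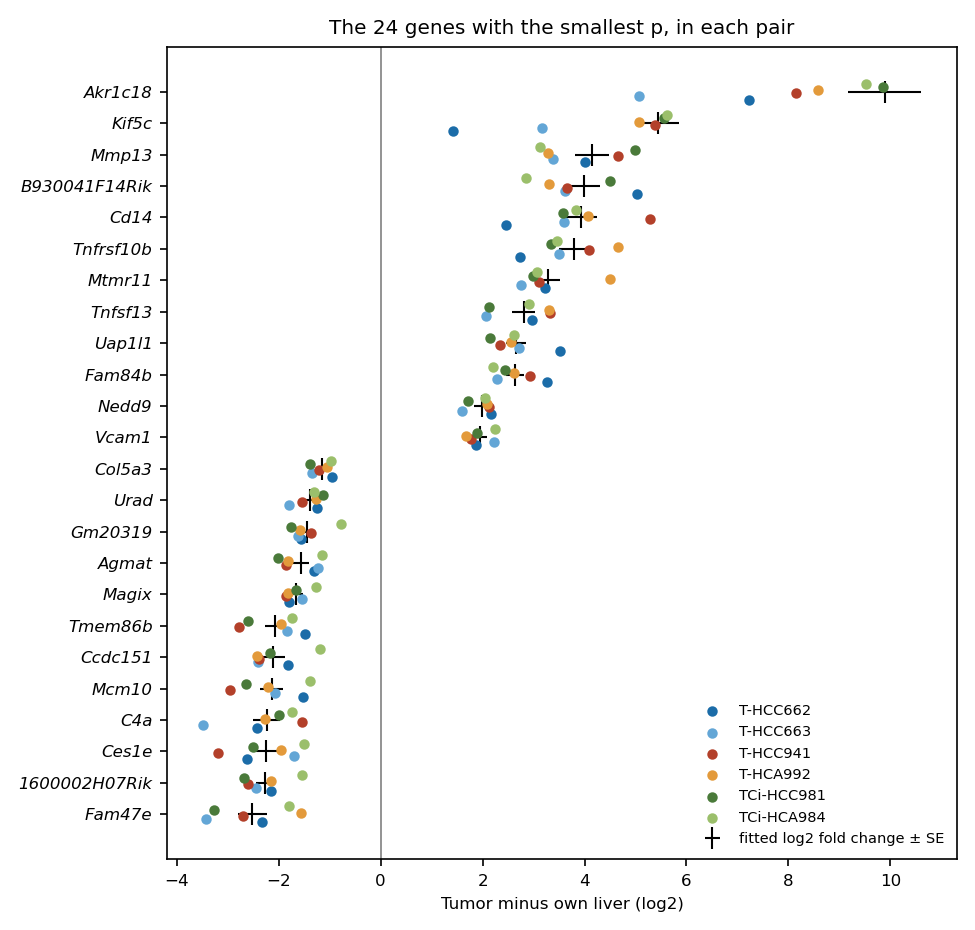
Pair differences of the 12 genes higher and the 12 genes lower in tumors with the smallest p (x axis, tumor minus own liver, log2), one colored point per pair, with the fitted log2 fold change and its SE in black. The 24 genes were chosen among those called and moving the same way in 6 of 6 pairs. That all 6 points lie on the same side of 0 in each gene follows from this choice. The choice by p also favors genes whose points spread little. The points of Vcam1 span only 1.67 to 2.24, whereas those of Akr1c18 span 5.07 to 9.85.

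Among the decreases, the genes with the smallest p included several enzymes of the hepatocyte. The smallest p of the decreases was that of 1600002H07Rik (Tedc2 in GENCODE, chr17:24215054-24220851, protein coding), which is not counted among these enzymes. It fell from 53.5, 132, and 278 CPM in livers to 8.22, 26.1, and 95.5 CPM in tumors, with a fitted log2 fold change of -2.26 ± 0.18 (adjusted p = 0.00134). Urad, an enzyme of urate degradation, ranged from 23.5 to 59.4 CPM in livers and 9.87 to 24 CPM in tumors, and its pair differences lay between -1.79 and -1.12. Tmem86b, which hydrolyzes lysoplasmalogens, was at 124 to 181 CPM in livers and 19.7 to 54.4 CPM in tumors, without overlap (log2 fold change -2.06 ± 0.20). Agmat, a member of the agmatinase family, and Ces1e, a carboxylesterase, changed by -1.56 ± 0.17 and -2.25 ± 0.24. C4a, a complement C4 gene with a near-identical copy in C4b, changed by -2.24 ± 0.26. Gm20319 is an antisense transcript that shares exonic sequence with Il1rap, so its log2 fold change of -1.45 cannot be assigned to it alone.

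In terms of transcript mass, the genes that fell in all pairs took 12.3 to 20.8% of the CPM in livers and 4.89 to 9.06% in tumors, and those that rose took 1.04 to 2.12% in livers and 3.06 to 5.32% in tumors. The direction of both shifts follows from how these genes were chosen, so the values give only their size. The genes that fell and had the most reads were Mup3, a major urinary protein, Bhmt and Mat1a of the methionine cycle, Mgst1, a microsomal glutathione transferase, Gm2083, a gene model of the Mup family, and Scp2, a sterol carrier protein. Scp2 went from 2474, 3059, and 3560.3 CPM in livers to 814, 1319, and 1975 CPM in tumors (log2 fold change -1.20 ± 0.25, adjusted p = 0.0178), with no overlap. The genes that rose and had the most reads were Cyp2a4, Igfbp1, Sult1a1, Ctsd, Gstm3, and Ctsz. Ctsd and Ctsz, lysosomal cathepsins, rose by only 0.62 ± 0.16 and 0.58 ± 0.17 on the log2 scale in all 6 pairs, and their calls were lost in 7 and 10 of the 11 alternatives run (adjusted p = 0.165 for Ctsz with edgeR and no animal block). Cyp2a4, a steroid hydroxylase nearly identical to Cyp2a5, rose from 0.682, 4.86, and 19.1 CPM in livers to 16.4, 2349, and 2773 CPM in tumors, and its pair differences of 1.71 in the T-HCC662 pair and 2.53 in the T-HCC663 pair were far below the 7.18 to 11.63 of the other pairs.

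In all, 31 gene lists of defined function were then read against these backgrounds of 8.66% higher and 7.00% lower, without a test on the lists. The median log2 fold change over all genes tested was -0.01. Some genes belong to more than 1 list, among them Mki67, Scd2, Slc7a11, Cdkn1a, and Nr1h4, so the lists are not separate results. In bulk tissue, a smaller share of a cell type and less RNA per cell of that type cannot be told apart.

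**Figure D3:**
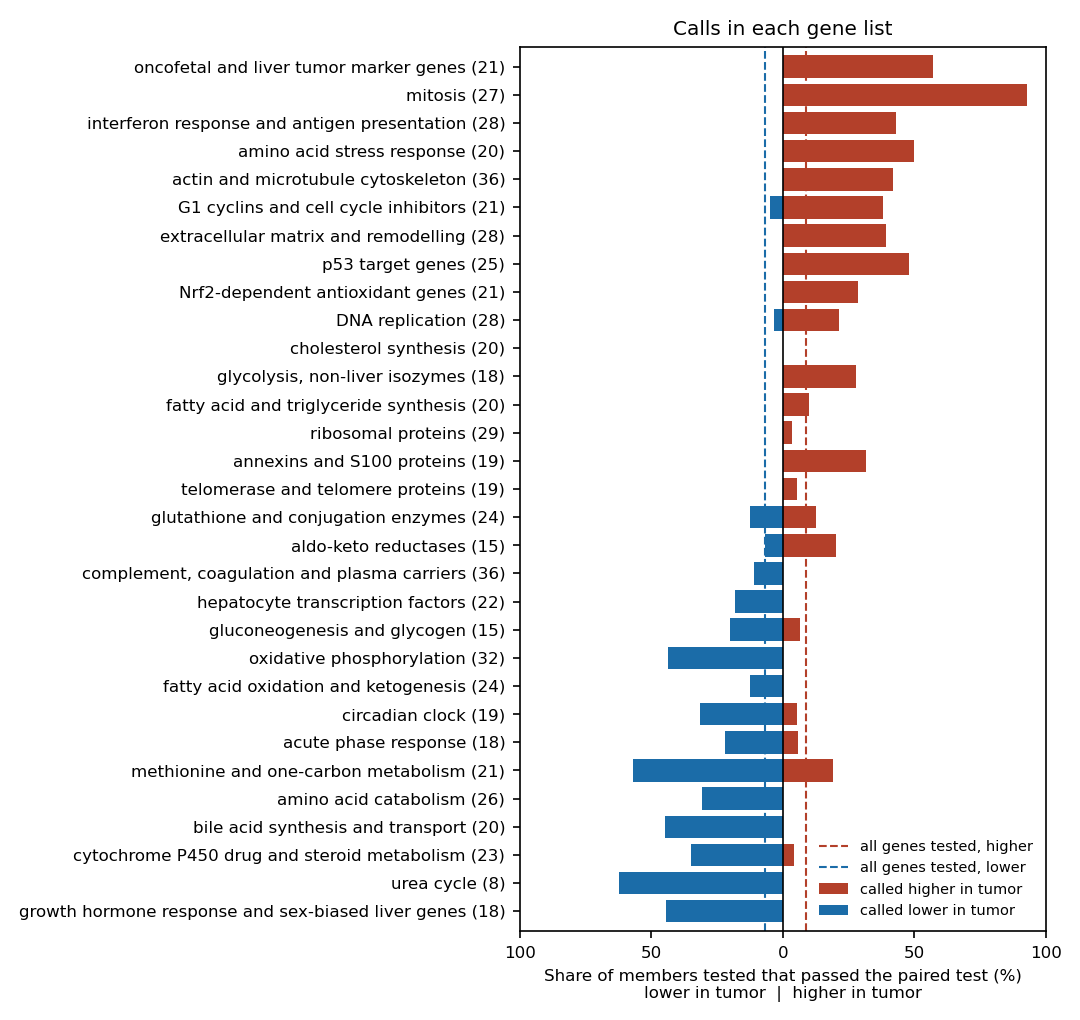
Share of the members tested of each gene list (number tested in parentheses) that passed the paired test as higher (red, to the right) or lower (blue, to the left) in tumors, in percent, ordered by median log2 fold change, with dashed lines at 8.66% and 7.00% for all genes tested. Mitosis (92.6% higher) and the urea cycle (62.5% lower) have the largest shares in their directions.

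Of the 31 lists, that of mitosis had the largest share of called members (92.6%). Of 27 tested, 25 rose and none fell, and 21 were higher in 6 of 6 pairs, with a median log2 fold change of 2.75. Cdk1, the kinase that drives entry into mitosis, had 0.242, 1.11, and 2.31 CPM in livers and 0.795, 10.3, and 13 CPM in tumors (log2 fold change 2.73 ± 0.42, adjusted p = 0.00721). Cenpf, a kinetochore protein, had 0, 0.47, and 0.882 CPM in livers and 0.227, 8.79, and 10.9 CPM in tumors (3.78 ± 0.46, adjusted p = 0.00402). Racgap1, which acts in cytokinesis, and Top2a, the topoisomerase that untangles sister chromatids, rose by 3.87 ± 0.53 and 2.93 ± 0.46. The ranges of livers and tumors overlapped in Cdk1, Cenpf, Racgap1, and Top2a, but each tumor was above its own liver. For the TCi-HCA984 pair this rests on levels near 0. Liver and tumor were at 0 and 0.227 CPM in Cenpf, 0.0485 and 0.454 CPM in Racgap1, and 0.242 and 0.795 CPM in Cdk1. The size of the increase differed between pairs. The median over the list was 4.21 in the T-HCC662 pair, 3.40 in the T-HCC663 pair, 3.09 in the T-HCC941 pair, and 2.88 in the T-HCA992 pair, against 0.81 in the TCi-HCC981 pair and 0.90 in the TCi-HCA984 pair. The summed level of the list was 26.1 to 88.3 CPM in livers and 42.7 to 400.4 CPM in tumors.

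The proximal promoters of the mitotic genes shared short sequence elements, which are shown here for 4 of them because the genes moved together. RefSeq promoters of 300 bases (250 before and 50 after the transcription start, GRCm38.p6) were at hand for 10819 of the genes tested. The cell cycle homology region (CHR, letters TTTGAA on either strand) was present in 16 of the 23 promoters of the mitosis list (69.6%) and in 12.2% of the promoters of all genes tested. The CCAAT box (letters CCAAT on either strand) was present in 78.3% and 38.8%, respectively. The CHR letters are also contained in the TCF/LEF letters CTTTGAA, which 2 of these 23 promoters hold (8.70%, against 3.72% of all). Over all genes that were called and higher in every pair, the CHR occurred in 13.7% of 818 promoters and the CCAAT box in 34.7%, both close to the share among all genes. In the sequences below, on the strand of the gene and 5′ to 3′, capitals mark CHR letters (TTTGAA or TTCAAA) and CCAAT boxes (CCAAT or ATTGG).
Cdk1, chr10:69352863-69353162, minus strand: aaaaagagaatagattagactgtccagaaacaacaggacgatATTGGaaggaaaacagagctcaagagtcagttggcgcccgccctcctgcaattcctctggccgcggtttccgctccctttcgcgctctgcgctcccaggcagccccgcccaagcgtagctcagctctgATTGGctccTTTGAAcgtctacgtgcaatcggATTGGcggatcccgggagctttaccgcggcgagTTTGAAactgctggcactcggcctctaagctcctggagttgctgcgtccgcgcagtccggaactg
Ccnb2, chr9:70421505-70421804, minus strand: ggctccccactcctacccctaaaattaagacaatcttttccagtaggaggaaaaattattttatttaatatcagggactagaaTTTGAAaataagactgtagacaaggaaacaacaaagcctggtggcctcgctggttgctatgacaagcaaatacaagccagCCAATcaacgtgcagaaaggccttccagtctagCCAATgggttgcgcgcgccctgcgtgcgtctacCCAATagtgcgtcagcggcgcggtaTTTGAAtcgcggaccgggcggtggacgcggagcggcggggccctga
Cenpf, chr1:189688037-189688336, minus strand: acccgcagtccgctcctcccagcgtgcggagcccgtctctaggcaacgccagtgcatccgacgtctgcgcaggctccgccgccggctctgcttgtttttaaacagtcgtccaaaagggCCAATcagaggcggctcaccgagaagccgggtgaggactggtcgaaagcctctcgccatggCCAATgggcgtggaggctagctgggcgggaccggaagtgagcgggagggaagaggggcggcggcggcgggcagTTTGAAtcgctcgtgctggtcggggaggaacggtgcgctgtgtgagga
Top2a, chr11:99024140-99024439, minus strand: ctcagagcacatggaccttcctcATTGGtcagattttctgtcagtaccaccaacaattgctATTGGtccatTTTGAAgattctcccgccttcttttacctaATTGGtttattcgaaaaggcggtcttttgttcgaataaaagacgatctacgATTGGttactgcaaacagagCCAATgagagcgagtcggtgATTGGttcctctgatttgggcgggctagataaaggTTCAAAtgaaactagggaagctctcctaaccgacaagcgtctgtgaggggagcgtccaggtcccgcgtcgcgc
The counted matches were 5 in Cdk1, 5 in Ccnb2, 3 in Cenpf, and 8 in Top2a. A match is a description of these letters and does not show that a factor binds there.

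Genes of DNA replication moved less. Of 28 tested, 6 rose and 1 fell, with a median of 0.48. Mcm6 and Mcm2, subunits of the replicative helicase, rose by 1.92 ± 0.34 (adjusted p = 0.0106) and 1.56 ± 0.34 (adjusted p = 0.0216), and Lig1, the ligase that joins Okazaki fragments, by 1.52 ± 0.26. Mcm10, which helps to activate the helicase, fell in all 6 pairs, from 57.8, 109, and 193 CPM in livers to 9.14, 25.2, and 67.3 CPM in tumors (-2.14 ± 0.23, adjusted p = 0.00306). It was the only called member of its list that did not rise. E2F letters (TTTNGCGC on either strand) were present in 6 of 23 promoters of the replication list (26.1%) and in 2.40% of all promoters. The promoter of Mcm6, shown with its 3 matches in capitals, is an example with overlapping letters on both strands.
Mcm6, chr1:128359656-128359955, minus strand: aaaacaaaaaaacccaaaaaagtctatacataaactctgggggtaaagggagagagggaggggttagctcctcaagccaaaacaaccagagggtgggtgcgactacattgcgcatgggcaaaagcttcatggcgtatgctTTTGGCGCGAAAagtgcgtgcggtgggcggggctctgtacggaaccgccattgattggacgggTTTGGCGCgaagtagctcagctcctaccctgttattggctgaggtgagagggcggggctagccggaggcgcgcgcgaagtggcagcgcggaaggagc

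Among G1 cyclins and inhibitors of the cell cycle, 8 of 21 rose and 1 fell, with a median of 0.80. The increase comprised genes of opposite action. Ccnd1, a cyclin that drives G1, rose by 1.98 ± 0.29 (livers 9.86, 23.4, and 42.4 CPM, tumors 50.6, 91.3, and 130.0 CPM, adjusted p = 0.0066), whereas Cdkn2b and Cdkn2c, which inhibit the kinases partnered with it, rose by 4.55 ± 0.66 and 2.05 ± 0.32. Cdkn2b was at 0.152 to 0.537 CPM in livers and 1.75 to 33 CPM in tumors, without overlap. Of 25 targets of p53, 12 rose and none fell, with a median of 0.70. Tnfrsf10b, the death receptor for TRAIL, rose from 0.387, 0.777, and 1.05 CPM to 5.43, 11.1, and 17.3 CPM (3.79 ± 0.30, adjusted p = 0.00134) and Bax, an effector of apoptosis, by 0.72 ± 0.12 (adjusted p = 0.0106), both in all 6 pairs. Btg2, an antiproliferative gene, rose in the fit by 2.07 ± 0.42 (adjusted p = 0.0172), with 1 pair of 6 at -0.03.

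Oncofetal and liver tumor marker genes had the highest list median, 3.26, with 12 of 21 higher and none lower. The list holds H19, which the study names for these tumors, and is not independent evidence of its direction. Prom1 (CD133) was at 0.228, 1.15, and 2.06 CPM in livers and 6.08, 25.8, and 39.5 CPM in tumors, without overlap (4.40 ± 0.46, adjusted p = 0.00283). Golm1, a Golgi protein used as a serum marker, and Abcc4, an exporter of organic anions, rose by 3.26 ± 0.49 and 3.68 ± 0.46. The classic oncofetal genes were uneven between tumors. Afp, alpha-fetoprotein, ranged from 11.9 to 235 CPM in tumors against 2.43 to 6.92 CPM in livers (3.27 ± 0.76, adjusted p = 0.0273), and the highest value was that of T-HCC941. H19, an imprinted long noncoding RNA, was at 2076 CPM in T-HCC941 and 1317 CPM in TCi-HCC981 but at 4.21 CPM in T-HCC663 and 7.72 CPM in the adenoma TCi-HCA984, and at 0.084 to 0.967 CPM in livers. Igf2, the imprinted growth factor next to H19, reached 688 CPM in T-HCC941 but was at 1.01 CPM in T-HCC663.

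Enzymes of the hepatocyte fell in the same tumors. In the urea cycle, 5 of 8 members fell and none rose, with a median of -1.76. Ass1, argininosuccinate synthase, had 89.4, 469.7, and 691 CPM in livers and 29.6, 65.2, and 76.9 CPM in tumors (-2.70 ± 0.42, adjusted p = 0.00752), and the tumors formed a narrow range. Asl, the enzyme after it, and Otc, ornithine transcarbamylase, changed by -1.80 ± 0.28 and -1.95 ± 0.34. In the TCi-HCA984 pair these differences were small (-0.40 in Ass1, -0.55 in Asl, and -0.17 in Otc), where the liver was the lowest of the 6 in all 3 genes. Amino acid catabolism had 8 of 26 members lower and none higher (median -1.15). Tat, tyrosine aminotransferase, fell from 994, 1274, and 1844 CPM to 145, 330.0, and 885 CPM (-1.98 ± 0.32, adjusted p = 0.00851), and Prodh2, hydroxyproline dehydrogenase, from 231, 351, and 442 CPM to 136, 147, and 173 CPM (-1.19 ± 0.17, adjusted p = 0.00589), both without overlap.

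Methionine and one-carbon metabolism divided into members that fell and members that rose. Of 21 tested, 12 fell and 4 rose. The members that fell belong mostly to the hepatic methionine cycle and transsulfuration. Mat1a, which makes S-adenosylmethionine, had 3217, 3759, and 5112 CPM in livers and 613, 1186, and 4177 CPM in tumors (-1.52 ± 0.38, adjusted p = 0.0336). Gnmt, the methyltransferase that consumes it, and Cth, which releases cysteine, changed by -2.19 ± 0.39 and -2.03 ± 0.36. The 4 that rose were Phgdh and Psat1 of serine synthesis and Mthfd2 and Aldh1l2 of the mitochondrial folate pathway. Psat1 was at 0.141, 0.484, and 9.31 CPM in livers and 6.04, 30.7, and 81 CPM in tumors (5.12 ± 0.83, adjusted p = 0.0084), and its highest liver value was that of the TCi-HCA984 mouse. Phgdh rose by 2.86 ± 0.45 (adjusted p = 0.00787) from low levels, and pseudogenes nearly identical to it exist.

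The same 4 genes belong to the list of the amino acid stress response, in which 10 of 20 members rose and none fell (median 0.92). Atf3, a stress-induced transcription factor, was at 0.565 to 5.71 CPM in livers and 16.1 to 31 CPM in tumors, without overlap (3.12 ± 0.47, adjusted p = 0.00714). Nupr1, a stress-induced chromatin protein, separated the groups as well, with 1.62 to 4.06 CPM in livers and 9.54 to 86.5 CPM in tumors (3.24 ± 0.50). Among Nrf2-dependent antioxidant genes, 6 of 21 rose and none fell (median 0.56). Srxn1, which repairs peroxiredoxins, rose from 52.9, 62.2, and 85.2 CPM to 142, 219.8, and 426 CPM (1.89 ± 0.22, adjusted p = 0.00356) and Nqo1, a quinone reductase, from 9.02, 9.71, and 24.7 CPM to 14.8, 46.6, and 225 CPM (2.11 ± 0.30, adjusted p = 0.00607). Cbr3, a carbonyl reductase, rose by 5.20 ± 0.85, with pair differences of 1.53 to 8.05. The smallest median of this list was that of the T-HCA992 pair (0.0991).

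Bile acid synthesis and transport had 9 of 20 members lower and none higher, with a median of -1.24. Cyp7b1, the oxysterol hydroxylase of the alternative pathway, fell from 74.7, 267, and 764 CPM to 5.95, 31.8, and 57.1 CPM (-3.33 ± 0.45, adjusted p = 0.00525), without overlap. Slc27a5 and Baat, which activate bile acids and join them to amino acids, changed by -1.61 ± 0.24 and -1.53 ± 0.25, and Nr1h4, the nuclear receptor for bile acids (FXR), by -1.19 ± 0.18. In the cytochrome P450 list, 8 of 23 fell and 1, Cyp2a4, rose (median -1.30). Cyp2j5, an epoxygenase, changed by -1.77 ± 0.23 (livers 389.9 to 591 CPM, tumors 68.6 to 224 CPM, adjusted p = 0.00493), and Cyp2c37 by -3.96 ± 0.89, where the T-HCC663 pair at -0.79 and the TCi-HCC981 pair at -6.81 were the extremes. Conjugating enzymes did not move one way. Of 24 glutathione and conjugation enzymes, 3 rose (Gsta1, Gstm3, and Sult1a1) and 3 fell (Mgst1, Sult1d1, and Sult5a1), Sult1d1 in 5 of 6 pairs. Aldo-keto reductases were likewise divided, with Akr1c18, Akr1b7 (4.53 ± 0.48), and Akr1b3 higher and Akr7a5 lower among 15. Akr1b3 was higher in 5 of 6 pairs.

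The list of growth hormone response and sex-biased liver genes had the lowest median, -1.92, with 8 of 18 lower and none higher. Mup3 (chr4:62083476-62087342, protein coding) was at 2908, 5685, and 11527 CPM in livers and 11.3, 151, and 1133 CPM in tumors (-5.94 ± 1.44, adjusted p = 0.0301). Mup19, Mup13, and Mup10 fell to 0 to 10.9, 0 to 2.9, and 0 to 2.27 CPM in tumors, but these 3 are each nearly identical to 15 other Mup genes, so their single counts are uncertain, whereas no near-identical copy was found for Mup3. The call of Mup3 was lost in 5 alternatives. Elovl3, a male-biased fatty acid elongase, fell from a median of 142 CPM in livers to 8.29 CPM in tumors (-3.99 ± 0.56, adjusted p = 0.00589). Hsd3b5, a male-specific steroid enzyme, was at 0, 0.333, and 1.35 CPM in tumors, but its liver values extended from 0.126 to 354 CPM, so the livers of the 6 mice already differed widely. Igf1, the growth factor secreted by the liver under growth hormone, and Igfals, which carries it in plasma, were lower without overlap. Igf1 went from 544, 719, and 947 CPM to 100.1, 205, and 308 CPM (-1.95 ± 0.31, adjusted p = 0.00822) and Igfals from 116, 163, and 179 CPM to 12.3, 41.2, and 100.3 CPM (-1.99 ± 0.30).

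Secreted plasma proteins changed less as a group. Of 36 complement, coagulation, and carrier genes, 4 fell (C9, Mbl2, C8b, and C8a) and none rose, with a median of -0.41, not far from the background share. C9, a pore-forming complement component, changed by -1.86 ± 0.32 (adjusted p = 0.0104). Of 18 acute phase genes, 4 fell (22.2%) and 1 rose (5.56%). Hamp, the iron hormone hepcidin, fell from 953, 1783, and 2439 CPM to 10.0, 58.8, and 562 CPM (-4.79 ± 0.87, adjusted p = 0.012), without overlap. Orm1 and Saa4 fell as well, and so did Crp, though not in all 6 pairs. Il1rn, the interleukin-1 receptor antagonist, rose by 3.32 ± 0.49. Of 22 hepatocyte transcription factors, 4 fell (Cebpa, Nr1h4, Rxra, and Esrra) and none rose (median -0.44). The call of Nr1h4, the bile acid receptor, held in all 11 alternatives, whereas those of Cebpa and Rxra were lost in 7 and that of Esrra in 8. Cebpa, which maintains the hepatocyte program, changed by -0.79 ± 0.21 (adjusted p = 0.0403). Hnf4a, the nuclear receptor at the centre of that program, was at 495 to 873 CPM in livers and 476 to 779 CPM in tumors (-0.14 ± 0.20, adjusted p = 0.65) and did not pass the test.

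In energy metabolism, transcripts of the respiratory chain fell and some of glycolysis rose. In oxidative phosphorylation, 14 of 32 members fell and none rose (median -0.55). Ndufv1, a subunit of complex I, was at 109, 162, and 195 CPM in livers and 68.3, 90.4, and 124 CPM in tumors, with pair differences of -0.95 to -0.65 (-0.77 ± 0.12, adjusted p = 0.007). Uqcrfs1, the Rieske protein of complex III, changed by -0.80 ± 0.14 and Sdhb, of complex II, by -1.03 ± 0.17. Of 18 glycolysis genes on a list of non-liver isozymes, which does not cover the whole pathway, 5 rose and none fell (median 0.40). They were Gpi1 (1.03 ± 0.18), Pkm (1.35 ± 0.26), Hkdc1 (3.09 ± 0.68), Aldoa (0.67 ± 0.18), and Pfkp (0.80 ± 0.21), of which Gpi1, Pkm, and Aldoa have near-identical copies. Of 15 genes of gluconeogenesis and glycogen, 3 fell (20%) and 1 rose (6.67%), with a median of -0.49. Pck1, the cytosolic PEP carboxykinase, fell from 1494, 2796, and 3788 CPM to 207, 342, and 2264 CPM (-2.63 ± 0.42, adjusted p = 0.00815). TCi-HCA984, at 2264 CPM, was alone within the liver range. Fbp1 and Slc37a4 fell as well, Slc37a4 in 5 of 6 pairs, whereas Pgm1 rose by 1.45 ± 0.27 in all 6 pairs. Fatty acid oxidation had 3 of 24 lower (Pecr, Cpt2, and Acadvl), and no gene of cholesterol synthesis was called in either direction by edgeR among 20 tested, where 4 were higher at an unadjusted p under 0.05 and DESeq2 called 4 higher. In fatty acid synthesis, 2 of 20 rose (10%, near the 8.66% of all genes tested). These were Scd2, a desaturase that is low in adult liver (3.3, 8.48, and 21.5 CPM in livers, 24.2, 331, and 1135 CPM in tumors, 5.31 ± 0.95), and Pnpla3, a lipid droplet hydrolase (4.18 ± 0.68), and in both the smallest difference was in the T-HCC663 pair.

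Some genes of the cytoskeleton and of the matrix rose, while the larger part of both lists did not pass the test. Of 36 actin and microtubule genes, 15 rose and none fell (median 0.81). Pdlim7, an actin-associated adaptor, was at 5.09 to 7.56 CPM in livers and 22.4 to 34.8 CPM in tumors, without overlap (2.04 ± 0.19, adjusted p = 0.00223), and Tagln2, an actin-bundling protein, at 6.78 to 24.6 and 28.6 to 168 CPM (2.73 ± 0.30). Among annexins and S100 proteins, 6 of 19 rose and none fell (median 0.19), among them Anxa2 (2.92 ± 0.53) and S100a11 (2.26 ± 0.41). Of 28 extracellular matrix genes, 11 rose and none fell (median 0.72). The matrix median was -0.141 in the T-HCC662 pair and 0.405 to 1.73 in the other pairs. Col4a1 and Col4a2, the basement membrane collagens, rose by 2.55 ± 0.34 and 2.43 ± 0.41, Sparc, a collagen-binding protein, by 1.79 ± 0.33, and Mmp12, the macrophage elastase, by 3.81 ± 0.52. Col4a1 and Col4a2 lie head to head with overlapping exons, and whether reads were counted by strand is not given in the sources used here. Of 6 markers of capillary endothelium tested, 4 rose (Apln, 6.01 ± 0.77; Esm1, 4.52 ± 0.83; Cd34, 3.22 ± 0.44; Emcn, 2.62 ± 0.47) and none fell, and their summed level was 23.6 to 90.1 CPM in livers and 53.4 to 182.8 CPM in tumors. Their median was 2.82 in the T-HCC662 pair, where that of the matrix was below 0, and its lowest value was 0.884 in the T-HCC663 pair. The median of 11 stellate cell and fibroblast markers was -1.67 in the T-HCC662 pair, -2.27 in the T-HCC663 pair, and 0.914 in the T-HCC941 pair. The part of these cells in the matrix result was not tested.

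Interferon response and antigen presentation genes rose in 12 of 28 and fell in none, with a median of 0.99. Rsad2 (viperin) and Ifit2, both antiviral effectors, rose by 1.55 ± 0.18 (adjusted p = 0.00356) and 2.48 ± 0.30 (adjusted p = 0.00395) in all 6 pairs. The list median was 0.0953 in the TCi-HCC981 pair and 0.679 to 1.36 in the other pairs. Markers of Kupffer cells and macrophages summed to 219.7 to 2276 CPM in livers and 273.9 to 1751 CPM in tumors. The median log2 fold change of the 12 tested was 0.49, and the pair median was above 0 in 4 of 6 pairs. Cd68, a lysosomal macrophage protein, rose (1.35 ± 0.29). Timd4 and Marco, markers of resident Kupffer cells, fell (-2.56 ± 0.72 and -3.69 ± 0.96), but neither was lower in all 6 pairs. The remaining 9 were not called. None of the 8 T and NK, 5 B and plasma, or 5 neutrophil markers tested was called by edgeR, where 2 T and NK markers were higher at an unadjusted p under 0.05 and in DESeq2 and no marker of the other lists was in either. Of the other markers on these lists, Gzma, Klrb1c, Ncr1, Ms4a1, Pax5, Mpo, and Elane did not pass the filter on low counts, and Trac, Ighm, Igkc, and Ly6g were not analysed here. The part of immune cells in the interferon result was not tested. As a check of the labelled tissue, hepatocyte markers summed to 40579 to 65303 CPM in livers and 24192 to 99377 CPM in tumors, with 3 of 10 lower and none higher. Cholangiocyte markers summed to 69.5 to 164.1 CPM in livers and 29.9 to 1125 CPM in tumors, with 1 of 8 called (Tspan8, higher). Sinusoidal endothelial markers had 1 of 11 higher (Pecam1, 1.54 ± 0.35), a share of 9.09% that is near the 8.66% of all genes tested. Stellate cell markers had 1 higher (Col1a1) and 2 lower (Hand2 and Ecm1) of 11.

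Lists with calls near or below the background included those of ribosomal proteins (1 of 29 higher, Rpl32) and of telomerase and telomere proteins (1 of 19 higher, the helicase Pif1, 2.51 ± 0.56, none lower, median -0.10). Pif1 was at 0.0485 to 1.13 CPM in livers and 0.17 to 6.09 CPM in tumors. Its pair differences were 2.17 to 4.05 in the p21+/Tert pairs but 0.11 and 0.85 in the p21+/TertCi pairs, and its call was lost in 4 alternatives. In the circadian clock, 6 of 19 fell and 1, Npas2, rose (median -0.68). Hlf and Ciart were lower in all 6 pairs and Tef, Nfil3, and Bhlhe41 in 5. Ciart, a repressor of the clock, changed by -1.51 ± 0.30 and Npas2, a paralog of Clock, by 2.17 ± 0.40, and the calls of Npas2, Ciart, Hlf, and Nfil3 were lost in edgeR with no animal block (adjusted p = 0.372, 0.358, 0.173, and 0.484). The hour at which each tissue was taken is not given in the sources used here.

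**Figure D4:**
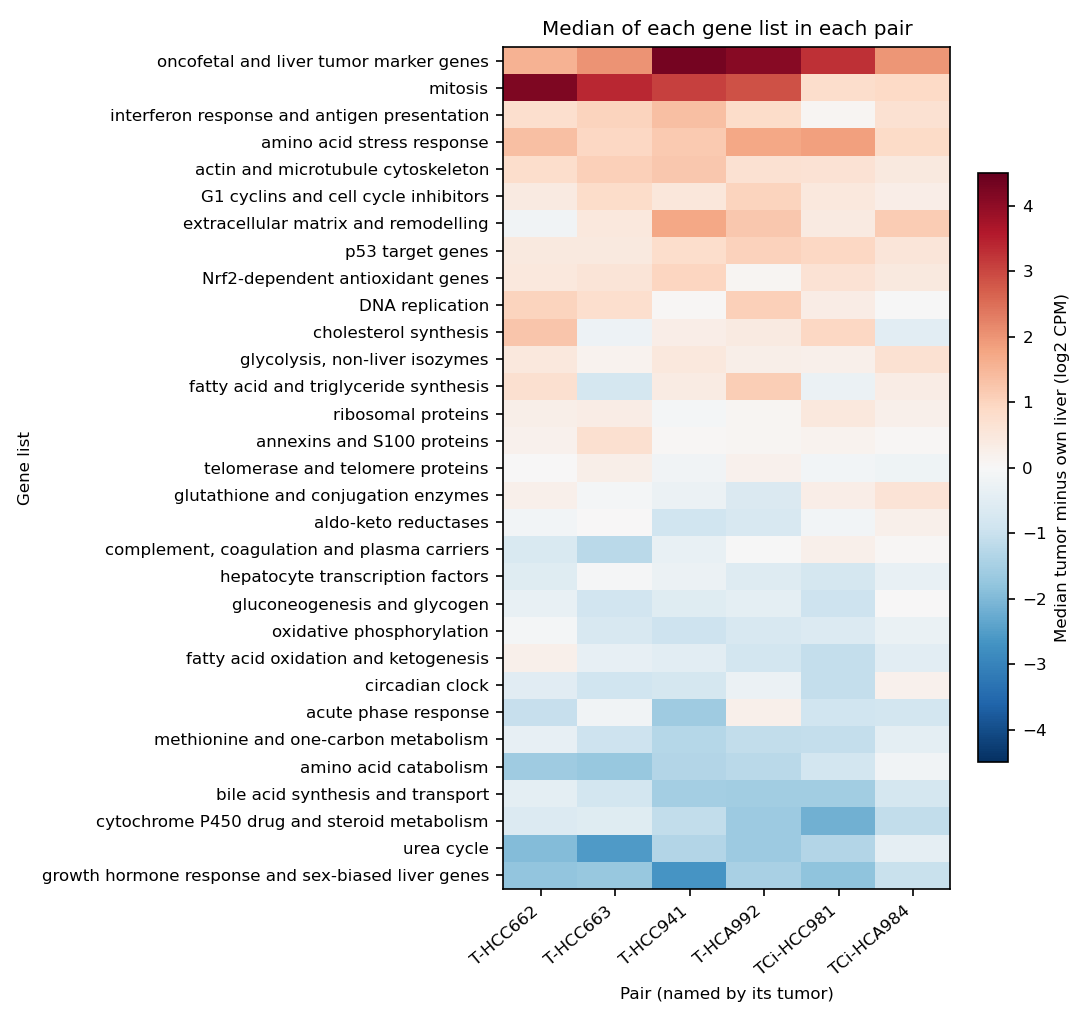
Median pair difference (tumor minus own liver, log2 CPM, color scale from -4.5 to 4.5) of each of the 31 gene lists (rows, ordered by median log2 fold change) in each of the 6 pairs (columns). Oncofetal genes, mitosis, and the amino acid stress response are above 0 and the growth hormone, urea cycle, and bile acid lists below 0 in all 6 columns, with mitosis weakest in TCi-HCC981 and TCi-HCA984.

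The 6 pairs differed in extent. Genes that differed at least 2-fold either way numbered 4224 in the T-HCC941 pair, 3446 in the T-HCC663 pair, 3260 in the T-HCC662 pair, 3233 in the TCi-HCC981 pair, 2932 in the T-HCA992 pair, and 2514 in the TCi-HCA984 pair. In the genes higher in every pair the median difference was 1.96 in the T-HCC941 pair and 1.14 to 1.36 in the other pairs, and in the genes lower in every pair it was -1.17 in the T-HCC941 pair and -0.61 in the TCi-HCA984 pair, the weakest. The correlation of pair differences across the 13822 genes was 0.668 between the T-HCC662 and T-HCC663 pairs and 0.590 to 0.726 among the other 4, against 0.249 to 0.431 between a member of each set. These are descriptions across genes, which are not independent. T-HCC662 and T-HCC663 are the tumors in which the study found Ctnnb1 mutations. Genes chosen after their values were seen show the contrast. Glul, glutamine synthetase, was 1092 to 1829.7 CPM in livers, 9494 and 10316 CPM in T-HCC662 and T-HCC663, and 140.3 to 439 CPM in the other 4 tumors. Hal, which degrades histidine, showed the opposite, with 1.71 and 1.23 CPM in T-HCC662 and T-HCC663 against 100.5 to 421 CPM in the other tumors and 169 to 462 CPM in livers. Neither passed the paired test over all 6 pairs (adjusted p = 0.541 and 0.349).

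Whether the difference between tumor and liver depended on genotype was asked with an interaction term over 4 p21+/Tert and 2 p21+/TertCi pairs. edgeR called 0 genes (0%), although 767 had an unadjusted p under 0.05 (5.55%), and DESeq2 called 69. With 2 pairs in 1 arm, only large differences could pass, and genotype cannot be told apart from whatever else distinguishes these 2 animals.

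Differences were also uneven along the genome. For each pair, the median difference of the genes of a chromosome was taken relative to the median of all genes, over 13770 genes with a chromosome. Chromosome 15 lay above 0 in all 6 pairs, from 0.0441 in the T-HCA992 pair to 0.574 in the T-HCC662 pair, and 90 of its 554 genes rose (16.2%, against 8.66% overall) while 20 fell (3.61%). Chromosome 14 lay below 0 in all 6 pairs, from -0.196 in the T-HCC663 pair to -0.0367 in the TCi-HCA984 pair. Chromosome 4 was below 0 in 5 of 6 pairs, with its lowest value of -0.324 in the T-HCC662 pair. Chromosome 18 was shifted in both directions, from -0.195 in the T-HCA992 pair and -0.178 in the T-HCC663 pair to 0.344 in the TCi-HCC981 pair. Chromosome 8 was at -0.336 in the T-HCC941 pair, -0.228 in the TCi-HCC981 pair, and -0.151 in the T-HCA992 pair. Chromosome 1 was at 0.421 in the T-HCC941 pair and 0.476 in the TCi-HCC981 pair and between -0.0146 and 0.0616 in the other pairs. In the T-HCC941 pair the X chromosome was at 0.480, chromosome 13 at -0.542, and chromosome 9 at -0.300. Chromosome 17 was at -0.312 in the T-HCA992 pair. In the TCi-HCA984 pair no chromosome lay beyond 0.190 from 0. These values are descriptions without a test, and neighbouring genes are not independent.

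**Figure D5:**
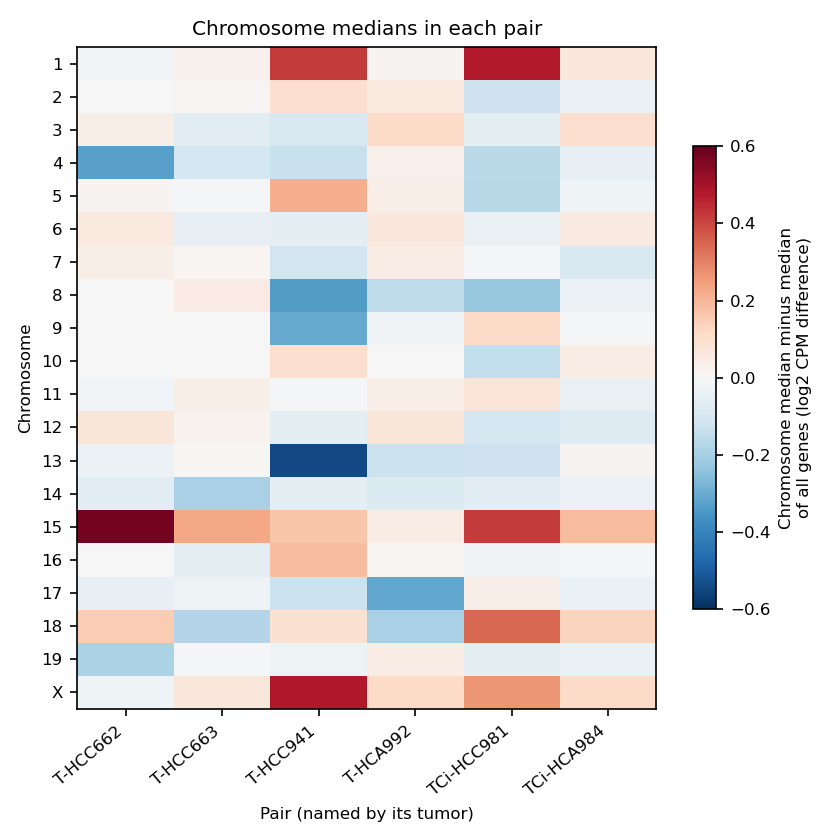
Median tumor minus own liver difference of the genes of each chromosome (rows, 1 to 19 and X), minus the median of all genes, in log2 CPM on a color scale from -0.6 to 0.6, in each of the 6 pairs (columns). Chromosome 15 is red in every column, from 0.0441 to 0.574, whereas chromosomes 13 and X stand out in T-HCC941.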

How the data were processed

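Poly(A) RNA of 6 tumors and 6 non-tumoral livers was sequenced as paired ends. The authors filtered reads by quality, used Subread for alignment to mm10 extended by mCherry, and assigned reads to genes with featureCounts 1.6.4. The deposited values are raw counts of reads per gene, 1 file per library, with no normalization. The authors tested with DESeq2 and a sequencing-run term. Which run a library belongs to is not given in the sources used here.

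Samples were grouped by their titles, and the animal number paired each tumor with the liver of the same mouse. Deviations from the means of each genotype and tissue were correlated between each tumor and the livers. The own liver ranked 1 for T-HCA992 (r of 0.427), 2 for T-HCC662 (0.169), 3 for T-HCC941 (0.00583), and 4 for T-HCC663 (0.0398). In the 2 p21+/TertCi animals deviations from a mean of 2 mirror each other, so both share 1 value (0.542) and their first ranks are not separate. For T-HCC662, T-HCC663, and T-HCC941 the check did not single out the own liver. Counts were scaled by TMM, filtered with filterByExpr, and tested with the quasi-likelihood F test of edgeR 4.0.16 in R 4.3.3 with animal and tissue as terms and Benjamini-Hochberg adjustment over all genes at 0.05, the test behind every adjusted p here. Totals of 14571716 to 26170661 reads per library limit what low genes can show, and counting error is part of the spread between pairs. The SE is the log2 fold change divided by the square root of F. Pair differences used log2 CPM with a prior count of 2. The gene lists and the members described were chosen with earlier results of these data known.

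Genes named are, among those called and moving the same way in 6 pairs, the 12 with the smallest p, the 6 with the largest smallest pair difference (mean CPM of at least 1), and the 6 with the highest mean CPM in each direction. Up to 4 called members of each list are named as well, whether or not all 6 pairs moved the same way. Other genes are said to be chosen after their values were seen, belong to a count of 5 or fewer, or check the labels (Tert, Cdkn1a, Xist, Ddx3y) or a list (Afp, H19, Igf2, Hnf4a). Positions are those of GENCODE on GRCm38. minimap2 2.31 found a near-identical gene (at least 95% identity over 50%) for 28 of 150 named genes, and 16 share exonic sequence with another counted gene. Scripts were tested on simulated data. Alternatives were no animal block, DESeq2 1.42.0, RLE scaling, a filter of only 1 count in any library, the 4 p21+/Tert pairs alone, each pair left out, and a prior count of 0.5.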

Additional observations from a re-analysis of the deposited data

Results flagged for a closer look

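Of 190 named genes and lists examined over the 6 pairs, 6 had a single pair far from the other pairs, and chance flags about 1 in 20. Mtmr11 differed by 4.49 in the T-HCA992 pair, against 2.75 to 3.23 in the others. Elovl7 differed by 9.19 in the T-HCC662 pair, against 4.21 to 6.02. Ass1 differed by -0.40 in the TCi-HCA984 pair, against -3.54 to -2.68, and the liver of that mouse was at 89.4 CPM. Tagln2 differed by 4.42 in the T-HCC941 pair, against 2.06 to 2.83. Sdhb differed by -0.22 in the TCi-HCA984 pair, against -1.34 to -1.09. The median of the annexins and S100 proteins was 0.708 in the T-HCC663 pair, against 0.0438 to 0.187.

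In 2 lists every p21+/Tert pair moved one way and both p21+/TertCi pairs the other, a difference that was not tested. The median of complement, coagulation, and plasma carriers was higher in the p21+/TertCi pairs by 0.696, but in the T-HCA992 pair it was only -0.0210. The median of B and plasma cell markers, of which none of 5 was called, was higher in the p21+/TertCi pairs by 1.82.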

How the results depend on the processing

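Counts of genes ranged, with each pair left out in turn, from 570 to 1037 higher and 296 to 823 lower in tumors, and from 563 to 994 and 296 to 796 among genes also moving the same way in every remaining pair. The lowest values were those without the T-HCC941 pair, followed by those without the T-HCA992 pair (615, 324, 610, and 323) and without the TCi-HCC981 pair (732, 475, 720, and 464), and the cause was not tested beyond the smaller number of pairs. With no animal block, that is without the pairing, 952 genes were higher and 534 lower, and 762 and 475 in every pair, with 1295 of its 1486 calls among the 2164 of the paired test (87.1%, or 59.8% of the 2164). DESeq2 called 1893 and 1646, which held all 2164, and 69 genes for the interaction of genotype and tissue, where edgeR called 0 under all other alternatives run. The 4 p21+/Tert pairs alone gave 571 and 383, and 571 and 382 in every pair. RLE size factors gave 1204 and 976, and every gene with at least 1 count 1238 and 846. No named gene changed direction under these alternatives, and 93 of 150 stayed past the threshold in all of them. DESeq2 lost 0, RLE 1, the wider filter 6, no block 24, and the p21+/Tert pairs alone 44. Leaving out 1 pair lost 36 without the T-HCC941 pair, 33 without the T-HCA992 pair, 25 without the TCi-HCC981 pair, and 12 to 16 without each of the others. The list median changed sign for telomere proteins in 5 settings, for annexins and S100 proteins without the T-HCC663 pair (-0.03), for aldo-keto reductases without the T-HCC941 pair (0.01), and for conjugation enzymes without the T-HCA992 pair (0.12). A change below the depth of these libraries, or one that only 1 of the 6 tumors shows, would not be seen by this test.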
